A study of Homo sapiens with 10 samples.

Results

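RNA of PC-3 spheroids after 3 days of topotecan was compared with RNA of untreated spheroids, with both ways of giving the drug on the treated side. The comparison used 5 of the 10 samples of the experiment. They were untreated spheroids on days 0, 3 and 7 and spheroids on day 3 of conventional topotecan (CONV-TOPO, a bolus at the start) or of extended exposure topotecan (EE-TOPO, the metronomic regimen with a daily fraction of the bolus). All 5 carried the same unmodified PC-3 line, a human prostate cancer cell line. They grew as 3D spheroids of tumor cells in wells, so no host tissue was present. Each condition was 1 library, and the untreated libraries of 3 days served as the spread without drug. A gene was called changed only where both treated libraries lay above, or both lay below, every untreated library. Of 18144 genes listed, 10102 reached a mean of 10 CPM (counts per 1000000 reads) over the 5 libraries and were tested, and 3622 of these were changed by this rule.

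Topoisomerase I nicks DNA to release the twist that builds up ahead of replication forks and RNA polymerase. Topotecan holds the enzyme on the nicked strand, and a fork or polymerase that meets the trapped enzyme can turn the nick into a break. Genes of DNA replication are driven by E2F factors, interferon-stimulated genes by factors that bind the interferon-stimulated response element, and CCN2 by YAP with TEAD factors. MHC class I molecules present peptides of the cell to T cells and are induced by the same interferon signals.

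The promoters of 6 genes that the results turn on are shown, because each holds letters of the element named for its group. Each run covers the 250 bases before the start site in RefSeq (GRCh38.p14), written 5′ to 3′ on the strand of the gene. CCN2 shows the TEAD motif (GGAATG) in capitals. BST2, IFI27, IFI6 and B2M show the core of the interferon-stimulated response element (GAAANNGAA), and GINS2 shows an E2F motif (TTTCCCGC). Both strands were searched, so a motif can stand as its reverse complement, and neighboring matches of the core overlap in BST2 and B2M.
CCN2 (chr6:131951373-131951622, minus strand): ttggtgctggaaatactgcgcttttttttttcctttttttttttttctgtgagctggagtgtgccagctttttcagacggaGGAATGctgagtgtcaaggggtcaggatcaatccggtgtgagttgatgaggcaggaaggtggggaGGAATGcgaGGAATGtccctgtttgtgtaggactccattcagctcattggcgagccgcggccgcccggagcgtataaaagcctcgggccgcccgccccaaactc
BST2 (chr19:17405631-17405880, minus strand): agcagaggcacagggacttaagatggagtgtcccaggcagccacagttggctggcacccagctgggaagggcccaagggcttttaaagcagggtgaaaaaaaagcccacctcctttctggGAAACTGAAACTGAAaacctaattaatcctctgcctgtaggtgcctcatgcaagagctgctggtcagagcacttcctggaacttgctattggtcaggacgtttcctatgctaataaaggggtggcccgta
IFI27 (chr14:94110486-94110735, plus strand): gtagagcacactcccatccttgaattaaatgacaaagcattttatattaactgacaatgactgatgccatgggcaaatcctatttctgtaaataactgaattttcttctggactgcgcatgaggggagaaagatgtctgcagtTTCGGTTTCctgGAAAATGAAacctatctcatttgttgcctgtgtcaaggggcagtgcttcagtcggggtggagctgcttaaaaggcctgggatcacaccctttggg
IFI6 (chr1:27672193-27672442, minus strand): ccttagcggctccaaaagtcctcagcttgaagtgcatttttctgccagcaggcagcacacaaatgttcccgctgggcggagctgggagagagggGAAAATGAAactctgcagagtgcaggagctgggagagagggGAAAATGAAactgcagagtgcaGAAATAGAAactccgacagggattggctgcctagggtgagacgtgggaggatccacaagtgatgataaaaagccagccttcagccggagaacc
B2M (chr15:44711267-44711516, plus strand): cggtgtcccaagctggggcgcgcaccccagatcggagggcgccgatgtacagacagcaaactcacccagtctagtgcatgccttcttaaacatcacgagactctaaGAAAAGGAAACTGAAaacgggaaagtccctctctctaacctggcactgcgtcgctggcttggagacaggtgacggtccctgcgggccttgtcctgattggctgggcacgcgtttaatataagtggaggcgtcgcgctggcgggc
GINS2 (chr16:85688955-85689204, minus strand): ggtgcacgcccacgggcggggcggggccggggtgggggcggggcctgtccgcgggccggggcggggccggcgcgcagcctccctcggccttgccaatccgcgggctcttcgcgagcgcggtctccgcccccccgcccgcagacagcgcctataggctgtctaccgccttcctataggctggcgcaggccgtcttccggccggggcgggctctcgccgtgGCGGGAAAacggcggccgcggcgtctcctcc

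In the CCN2 promoter the TEAD motif stood 3 times, at 90, 99 and 164 bases before the start. IFI6 held the interferon core 3 times, and BST2, IFI27 and B2M held it 2 times each. In the same window HLA-B held no match to the core, and EZH2 and CDC45 held neither E2F motif (TTTCCCGC or TTTGGCGC), which says only that these exact letters were not there. Over the whole window of 250 bases before and 50 after the start, the core was present in 13 of the 18 promoters of interferon-stimulated genes that were matched (72.2%) and in 9 of 16 of the MHC class I list (56.3%). It was present in 6.14% of the 8196 promoters matched among the tested genes and in 8.30% of all 27195. One of the E2F motifs was present in 15 of 31 DNA replication promoters (48.4%) against 4.09% of tested and 2.32% of all promoters. The TEAD motif was common, with 10.4% of tested and 14.0% of all promoters. Genes called higher held the interferon core in 7.23% of promoters and genes called lower in 6.62%, so over all changed genes the shares lay close to that of the tested genes.

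Both treated libraries lay above every untreated one for 2050 genes (20.3% of genes tested) and below for 1572 (15.6%), and 6480 overlapped. Most of these gaps were small. Genes called higher stood at a median of 1.25-fold over the untreated mean, on the scale of CPM + 1 on which every fold here is given, and genes called lower at 0.824-fold. Between the nearest treated and the nearest untreated library, at least a 1.5-fold gap was left for 39 genes above and 6 below. Exact 95% Poisson intervals of those nearest libraries, from reads estimated from the steps between low values and covering counting error only, stood apart for 566 genes above and 461 below. The direction of the majority depended on the scaling: of changed genes, 56.6% were higher on CPM as deposited, 43.1% after TMM scaling (1551 higher, 2051 lower) and 42.3% after median-of-ratios scaling (1528 higher, 2083 lower). These scalings moved the median log2 difference of all genes from 0.04 by -0.06 and -0.07, and 1521 higher and 1572 lower calls held under all 3. Of the 2050 genes above, 93 had an untreated mean under 10 CPM and so passed the limit only through the treated libraries, among them PSCA, KLF7, BAMBI, EZH1, H4C8, NLRC5 and ZNF91, and 41 of the genes below passed only through the untreated ones, among them FOS, GINS2 and RNASEH2B. Such genes had to differ to be tested. Leaving out a library can only add calls. Of all 10102 genes, 2231 lay above without untreated day 0, 3134 without untreated day 3 and 3172 without untreated day 7. Without CONV-TOPO 3552 lay above, and without EE-TOPO 2949. Those below were 1898, 2158, 2326, 2776 and 2336 in the same order. The count of a list without 1 library stands beside these.

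In limma on log2(CPM + 1), 2 treated against 3 untreated libraries, 3 genes passed an adjusted p of 0.05 and all 3 were higher (0.0297% of genes tested). No gene was lower at that threshold, while at an unadjusted p under 0.05 there were 990 higher and 592 lower. The error in this fit is the spread between untreated days and between regimens and not between replicate cultures. An exact two-sided permutation test of a single gene, with 10 arrangements of 3 against 2, could not go below 0.2. In the text that follows, "rose" is kept for those 3 genes, and other genes are described as above or below the untreated libraries.

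PSCA, HMOX1 and RDH10 rose. PSCA encodes prostate stem cell antigen, a surface protein anchored by lipid. It was at 6.01, 8.35 and 7.46 CPM in untreated spheroids of days 0, 3 and 7, at 63.0 CPM with CONV-TOPO and at 50.4 CPM with EE-TOPO. Both treated values lay at least 5.49-fold above the untreated values on the scale of CPM + 1, which was the widest gap of all genes. The log2 difference was 2.80 ± 0.19 (SE; limma adjusted p = 0.00344), and the adjusted p over the alternatives ran from 0.000615 to 0.0998, with 10 of 13 under 0.05. Its untreated mean was 7.27 CPM, under the limit of 10 CPM that it passed through the treated libraries, and with a limit of 1 CPM in place of 10 its limma adjusted p was 0.00313.

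HMOX1, on chromosome 22 from 35381096 to 35394207 (hg38), encodes heme oxygenase 1, which breaks down heme. It stood at 12.8, 13.8 and 13.2 CPM without drug, at 34.1 CPM with CONV-TOPO and at 36.9 CPM with EE-TOPO, a log2 difference of 1.36 ± 0.14 (limma adjusted p = 0.0375; 0.0222 to 0.904 over alternatives, 7 of 13 under 0.05). RDH10 encodes a retinol dehydrogenase that makes retinaldehyde. Its level was 116, 115 and 110.4 CPM without drug, 233 CPM with CONV-TOPO and 249 CPM with EE-TOPO, a log2 difference of 1.08 ± 0.11 (limma adjusted p = 0.0350; 0.0222 to 0.904 over alternatives, 7 of 14 under 0.05). The untreated days were nearly level for both genes, and both regimens were more than 2-fold above them.

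**Figure D1:**
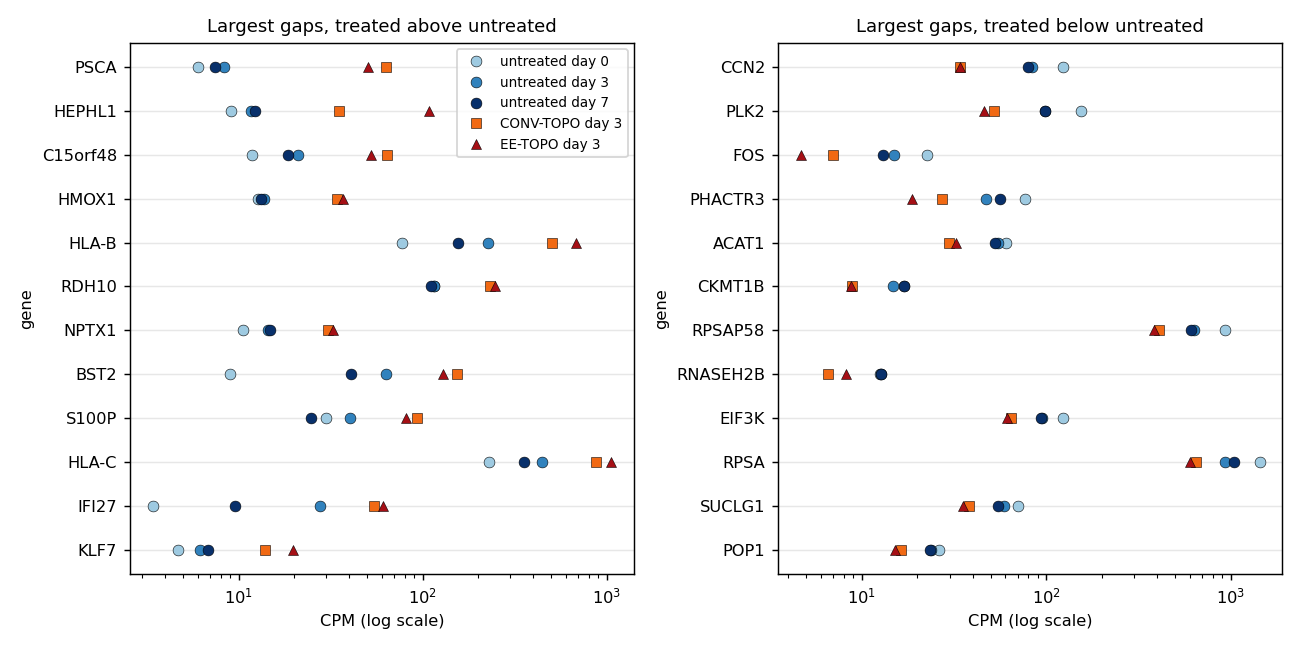
CPM (log axis) of the 12 genes with the largest gap above (left) and below (right) the untreated libraries; circles are untreated days 0, 3 and 7, squares CONV-TOPO day 3 and triangles EE-TOPO day 3, with 1 library each. No treated symbol reaches an untreated one in any row; the widest gaps are those of PSCA (5.49-fold above) and CCN2 (0.440-fold, below).

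Among the other genes with the largest gaps above the untreated libraries, both regimens were close together for most and far apart for HEPHL1. HEPHL1 encodes hephaestin like 1, a ferroxidase, and stood at 9.12, 11.6 and 12.3 CPM without drug, 34.9 CPM with CONV-TOPO and 108 CPM with EE-TOPO. C15orf48, a gene of a small mitochondrial protein, stood at 11.8, 21.03 and 18.6 CPM without drug, 64.0 CPM with CONV-TOPO and 52.1 CPM with EE-TOPO. S100P, a calcium-binding protein, stood at 29.8, 40.2 and 24.8 CPM against 92.8 and 81.0 CPM. For these 3 genes the lowest treated value was 2.69, 2.41 and 1.99 times the highest untreated one, but limma adjusted p was 0.145, 0.107 and 0.107. NPTX1, a neuronal pentraxin, was at 10.5, 14.4 and 14.8 CPM without drug and at 30.6 and 32.6 CPM with CONV-TOPO and EE-TOPO. The transcription factor KLF7 was at 4.66, 6.13 and 6.83 CPM and at 13.8 and 19.7 CPM. The remaining 4 of the 12, HLA-B, HLA-C, BST2 and IFI27, belong to the groups that follow.

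Interferon-stimulated genes lay above the untreated spheroids, but mostly by a small margin over the untreated spheroids of day 3. Of 26 such genes all were listed, 25 were tested, and 15 (60.0%) lay above every untreated library and 0 below, beside 20.3% and 15.6% of all genes tested. The median log2 difference of the 25 was 1.14 against 0.04 over all genes. Their summed level was 1448, 5001 and 2566 CPM in untreated spheroids of days 0, 3 and 7, 6177 CPM with CONV-TOPO and 6018 CPM with EE-TOPO. Untreated spheroids thus differed among themselves by more than the treated ones differed from untreated day 3, against which the median log2 difference was 0.24 for CONV-TOPO and 0.31 for EE-TOPO. Without the untreated library of day 3, 23 of the 25 lay above, beside 3134 of all 10102 genes. This list and the others not marked as added were chosen with earlier results of these data known.

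IFI27, a small mitochondrial protein induced by interferon, was at 3.41, 27.5 and 9.61 CPM without drug, at 54.5 CPM with CONV-TOPO and at 61.1 CPM with EE-TOPO. BST2 encodes tetherin, which holds budding virus at the cell surface, and stood at 9.02, 63.6 and 40.8 CPM against 153 and 128 CPM. IFI6 was at 78.8, 516 and 200.0 CPM without drug and at 962 and 1012 CPM with CONV-TOPO and EE-TOPO. In these 3 genes both regimens stood at least 1.86-fold above untreated day 3, and the promoters of all 3 are among those shown above. Their limma adjusted p was 0.239, 0.247 and 0.244. MX1, an antiviral GTPase, came closer, with 51.5, 323 and 128 CPM without drug and 362 and 369.8 CPM with CONV-TOPO and EE-TOPO. ISG15 and IRF9 overlapped the untreated values: ISG15, a ubiquitin-like protein, was at 274, 939 and 447 CPM without drug, 1060.3 CPM with CONV-TOPO and 809 CPM with EE-TOPO. The core element was in 9 of the 10 matched promoters of members called higher.

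MHC class I genes and the genes that load peptides on their products also lay above the untreated spheroids. In a list of 22 added after its values were seen, 20 were tested. Of these, 13 (65.0%) lay above every untreated library and 0 below, beside 20.3% and 15.6% of all genes, with a median log2 difference of 0.68. Against untreated day 3 alone the median was 0.31 for CONV-TOPO and 0.26 for EE-TOPO, as small as for the interferon-stimulated genes. Counting only the 18 with an untreated mean of at least 10 CPM, 11 lay above, beside 1957 of all 9963 such genes. HLA-B, a heavy chain of MHC class I on chromosome 6 from 31353875 to 31357179, was at 77.2, 228 and 156 CPM without drug, 505 CPM with CONV-TOPO and 683 CPM with EE-TOPO. HLA-C was at 230.4, 445 and 357 CPM against 876 and 1063 CPM. Their log2 differences were 2.06 ± 0.38 and 1.54 ± 0.25 (SE), with limma adjusted p of 0.1999 and 0.145. The HLA genes are near-identical and differ between people, so reads could be split between them and each value is uncertain. B2M, the shared light chain, has no such copies and was at 718, 1035 and 963 CPM without drug, 1723 CPM with CONV-TOPO and 2012 CPM with EE-TOPO, a log2 difference of 1.06 ± 0.18 (limma adjusted p = 0.145).

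The peptide transporter genes TAP1 and TAP2 lay above by less. TAP1 was at 87.9, 229.7 and 152 CPM without drug and at 289 and 250.3 CPM with CONV-TOPO and EE-TOPO, and TAP2 at 75.8, 133 and 116 CPM against 163 and 158 CPM. NLRC5, the transactivator of MHC class I genes, was at 3.41, 11.9 and 11.4 CPM against 22.8 and 14.99 CPM. Peptidases that trim peptides for loading, ERAP1 and ERAP2, lay above too, with ERAP1 at 46.7, 80.9 and 73.8 CPM against 104 and 121 CPM. The immunoproteasome genes were mixed, since PSMB9 lay above and PSMB8 and PSMB10 overlapped. Complement genes, another list of 14 added after the values were seen, had 8 members tested, of which 3 (37.5%) lay above and 0 below, beside 20.3% and 15.6% of all genes. C3, the central complement protein, was at 12.8, 13.1 and 12.8 CPM without drug, 21.6 CPM with CONV-TOPO and 49.9 CPM with EE-TOPO. C1S was at 6.26, 14.5 and 13.7 CPM against 25.4 and 24.4 CPM.

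**Figure D2:**
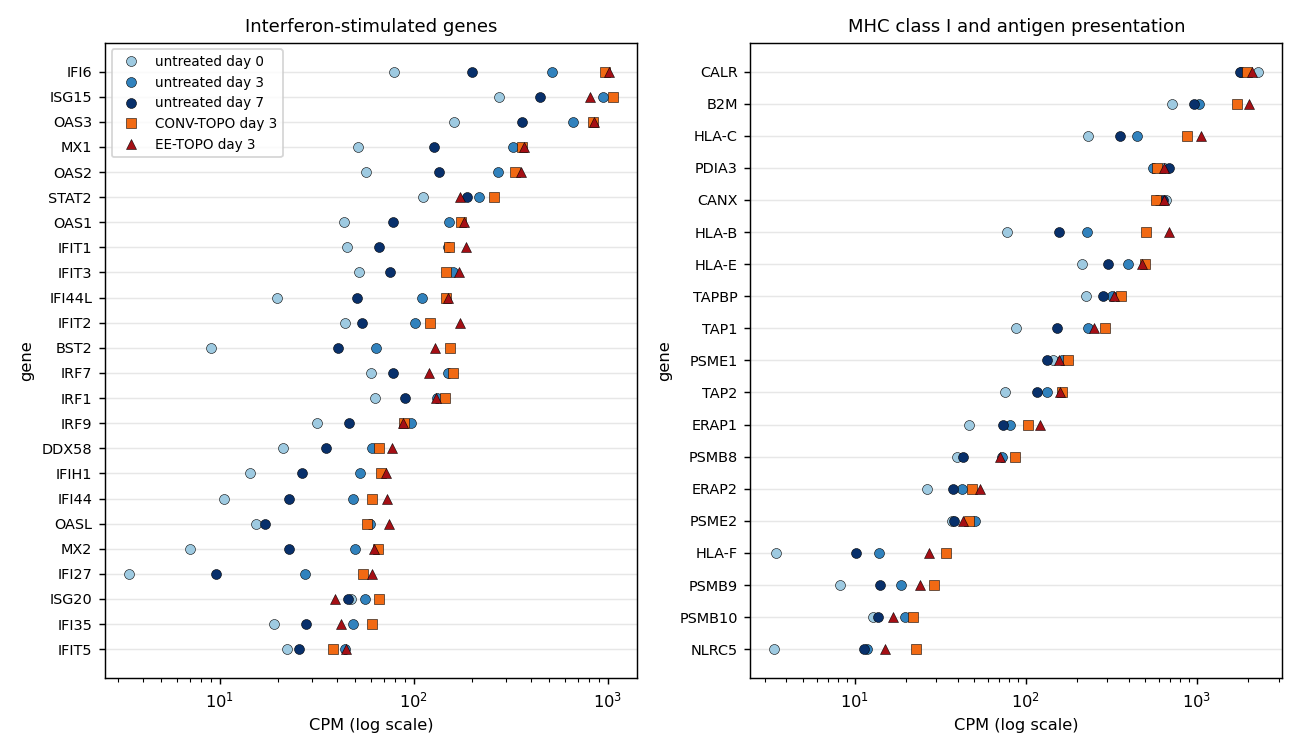
CPM (log axis) of 24 of the 25 tested interferon-stimulated genes (left) and 19 of the 20 tested genes of MHC class I and antigen presentation (right) in each library; circles are untreated days 0, 3 and 7, squares CONV-TOPO day 3 and triangles EE-TOPO day 3. Over untreated day 3, the median log2 difference with CONV-TOPO and EE-TOPO is 0.24 and 0.31 for all 25 interferon-stimulated genes. For all 20 genes of the MHC class I list it is 0.31 and 0.26. IFI27, BST2, IFI6, HLA-B, HLA-C and B2M stand clear of the untreated day-3 circle.

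CCN2 had the widest gap of all genes below the untreated spheroids. CCN2, on chromosome 6 from 131948177 to 131951372, encodes connective tissue growth factor, a secreted protein and a standard target of YAP and TEAD. It was at 123, 83.6 and 79.3 CPM in untreated spheroids and at 34.2 and 34.3 CPM with CONV-TOPO and EE-TOPO, so that the regimens were nearly equal. The log2 difference was -1.42 ± 0.19 (SE; limma adjusted p = 0.107). CCN1, its close relative, was at 301, 289 and 266 CPM without drug, 194 CPM with CONV-TOPO and 192 CPM with EE-TOPO. These were the only 2 of 23 tested YAP/TEAD targets that lay below. That was 8.70% of the list beside 15.6% of all genes, while 4 members (17.4%) lay above beside 20.3%, and the median log2 difference was 0.12. IGFBP3, which binds insulin-like growth factors, was above at 82.0, 138 and 132 CPM against 255 and 393 CPM, and YAP1 itself was at 204, 206 and 226 CPM against 229 and 235 CPM. Without CONV-TOPO, 12 of the 23 lay above, beside 3552 of all 10102 genes. Without the untreated library of day 7, 9 did, beside 3172.

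Early response and actin genes lay below in larger shares than all genes. Of 20 immediate early genes tested, 6 (30.0%) were below and 1 above, beside 15.6% and 20.3% of all genes. FOS, a subunit of AP-1, was at 22.5, 14.95 and 13.1 CPM without drug, 6.97 CPM with CONV-TOPO and 4.67 CPM with EE-TOPO. IER3 was at 400.2, 518 and 323 CPM against 285 and 255 CPM. Of 22 genes of SRF and the actin cytoskeleton, 7 were below and 1 above, with small gaps. TAGLN2, an actin-binding protein, was at 1755, 1687 and 1532 CPM against 1388 and 1327 CPM. PLK2, a polo-like kinase, was at 154, 98.2 and 98.3 CPM without drug, 52.5 CPM with CONV-TOPO and 46.0 CPM with EE-TOPO. The counts depended on single libraries. Without untreated day 3 there were 9 immediate early genes above, beside 3134 of all 10102 genes. Without EE-TOPO there were 11 actin genes below, beside 2336. PHACTR3, which binds actin and protein phosphatase 1, was at 77.3, 47.4 and 56.3 CPM against 27.2 and 18.8 CPM.

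EZH2 lay below by a margin that counting error alone could cover. EZH2, on chromosome 7 from 148807383 to 148884291, encodes the methyltransferase of Polycomb repressive complex 2. It was at 28.7, 38.1 and 25.9 CPM without drug, 24.6 CPM with CONV-TOPO and 24.5 CPM with EE-TOPO, a log2 difference of -0.30 ± 0.18 (SE; limma adjusted p = 0.435). The lowest untreated value was within the 95% counting intervals of the treated ones. Of 15 Polycomb and DNA methylation genes tested, 4 (EZH2, RBBP4, RBBP7 and DNMT1) lay below and 2 above. These were 26.7% and 13.3%, beside 15.6% and 20.3% of all genes. Without CONV-TOPO or without EE-TOPO 7 lay below, beside 2776 and 2336 of all 10102 genes. EZH1, which can take the place of EZH2 in the complex, was above at 7.21, 9.83 and 9.40 CPM against 13.9 and 11.3 CPM.

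Genes of DNA replication lay below the untreated spheroids in 13 of 38 cases (34.2%) and above in 0, beside 15.6% and 20.3% of all genes. The median log2 difference was -0.14. GINS2, a subunit of the replicative helicase on chromosome 16 from 85676198 to 85688954, was at 18.1, 16.3 and 14.5 CPM without drug, 10.1 CPM with CONV-TOPO and 9.83 CPM with EE-TOPO. RPA3, which helps to coat single-stranded DNA, was at 37.0, 34.3 and 31.4 CPM against 22.8 and 21.9 CPM. CDC45, the helicase partner of GINS, was at 14.1, 16.2 and 14.7 CPM against 10.7 and 9.74 CPM. For all 3 genes the regimens were close together and the counting intervals stood apart, yet limma adjusted p was 0.239, 0.234 and 0.269. Without the untreated library of day 7, 21 of the 38 lay below, beside 2326 of all 10102 genes. RPA3 overlaps UMAD1 on the other strand, and the library kit did not mark strand, so that reads of the pair cannot be told apart. Nucleotide synthesis had 8 of 14 members (57.1%) below and 2 (14.3%) above, beside the same shares of all genes. DUT, which removes dUTP, was at 54.5, 54.3 and 49.5 CPM against 42.1 and 40.8 CPM, and IMPDH2 at 185, 224 and 173 CPM against 160.0 and 141 CPM. RNASEH2B, a subunit of the enzyme that removes ribonucleotides from DNA, was among the 12 widest gaps below, with 12.5, 12.7 and 12.8 CPM against 6.58 and 8.19 CPM.

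The mitosis genes depended on single libraries. Of 34 tested, 6 lay below and 0 above, close to the 15.6% of all genes below, with a median log2 difference of -0.29. After TMM or median-of-ratios scaling 10 of the 34 (29.4%) lay below, beside 20.3% and 20.6% of all genes. Their summed level was 2327, 1607 and 2431 CPM in untreated spheroids of days 0, 3 and 7, 1451 CPM with CONV-TOPO and 1937 CPM with EE-TOPO. The untreated library of day 3 was thus lower than EE-TOPO, and without it 28 of the 34 lay below, while without EE-TOPO 22 did. Of all 10102 genes, 2158 lay below without untreated day 3 and 2336 without EE-TOPO. UBE2C, which loads ubiquitin for the anaphase-promoting complex, was below at 50.4, 58.1 and 54.2 CPM against 38.6 and 41.3 CPM. MKI67 overlapped at 175, 103 and 192 CPM against 87.8 and 128 CPM. Among 20 genes of G1 and S phase entry, 4 (20.0%) were above and 1 (5%) below, near or under the 20.3% and 15.6% of all genes. After TMM scaling the counts were 3 and 3. Without untreated day 3, 10 were above, beside 3134 of all 10102 genes. CDKN1B, an inhibitor of cyclin-dependent kinases, was at 22.1, 30.2 and 26.9 CPM without drug, 42.7 CPM with CONV-TOPO and 42.2 CPM with EE-TOPO. CCND1 was at 903, 808 and 895 CPM against 1012 and 1281 CPM.

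The target of the drug was not called, and the DNA damage lists were divided. TOP1, which encodes topoisomerase I, overlapped, with 228, 218 and 193 CPM without drug, 205 CPM with CONV-TOPO and 239 CPM with EE-TOPO. Of 12 topoisomerase genes and genes that repair trapped topoisomerase, 3 (25.0%) lay below and 1 (8.33%) above, beside 15.6% and 20.3% of all genes. TOP1MT, the mitochondrial topoisomerase I, was at 50.9, 47.3 and 52.1 CPM against 40.0 and 38.4 CPM. Of 24 genes of recombination, the Fanconi pathway and checkpoints, 2 (ATR and RAD50; 8.33%) lay above and 0 below, or 2 below after TMM scaling. Without the untreated library of day 0, 6 of the 24 lay below, beside 1898 of all 10102 genes. Without that of day 3, 9 lay above, beside 3134. GDF15, a stress-induced cytokine, was at 339, 711 and 365 CPM without drug, 1105 CPM with CONV-TOPO and 917 CPM with EE-TOPO, while CDKN1A overlapped at 48.1, 117 and 59.1 CPM against 99.0 and 102 CPM. Of 10 BCL2 family genes tested, 2 (20%) lay above, 1 (10%) below and 7 overlapped, so the shares called were not above those of all genes. BCL2L11, which encodes the apoptosis promoter BIM, was at 16.9, 27.0 and 27.0 CPM against 43.4 and 40.3 CPM. The antiapoptotic MCL1 was above as well, at 249, 379 and 377 CPM against 417 and 445 CPM, and BAX was below at 43.7, 38.6 and 36.9 CPM against 34.9 and 33.1 CPM. Both gaps were small, with an unadjusted limma p of 0.0742 for MCL1 and 0.146 for BAX, and the counting intervals of BAX did not stand apart.

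Histone genes lay above in 8 of 17 cases (47.1%) and below in 2 (11.8%), beside 20.3% and 15.6% of all genes. Without the untreated library of day 7, 6 lay below, beside 2326 of all 10102 genes. The paper describes the libraries as mRNA sequencing. How fully they capture histone transcripts is not known here, so these values may not stand for histone RNA levels. Of the 16 with an untreated mean of at least 10 CPM, which leaves out H4C8, 7 lay above. Among all genes with such a mean, 1957 of 9963 did. H4C8 was at 8.12, 10.2 and 10.7 CPM without drug, 18.03 CPM with CONV-TOPO and 18.9 CPM with EE-TOPO. H2BC4 was at 48.8, 51.5 and 66.5 CPM against 94.4 and 113 CPM. H2AC18 was at 46.2, 54.0 and 60.4 CPM against 101 and 90.8 CPM, but its listed region holds other histone genes, H2AC19 among them, so its reads are uncertain. The 2 members below were H3-3A and H3-3B, which encode the replacement histone that is made outside S phase.

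Subunits of oxidative phosphorylation had the largest share below of any list. Of 75 subunits tested, 57 (76.0%) lay below every untreated library and 0 above, beside 15.6% and 20.3% of all genes. The median log2 difference was -0.40. The list was drawn up from gene symbols after values were seen, as were those of the ribosomal proteins and zinc fingers that follow. The calls covered each complex, as the symbols assign them: 24 of 37 in complex I, 3 of 4 in complex II, 8 of 9 in complex III, 9 of 10 in complex IV and 13 of 15 in ATP synthase. NDUFA4 was at 125, 88.9 and 89.4 CPM without drug, 66.1 CPM with CONV-TOPO and 56.9 CPM with EE-TOPO. UQCRFS1, the iron-sulfur protein of complex III, was at 127, 102 and 96.9 CPM against 72.6 and 64.6 CPM, and COX7B of complex IV at 177, 129 and 138 CPM against 97.7 and 73.4 CPM. No single subunit passed the adjusted threshold in limma, and 47 had an unadjusted p under 0.05. Other mitochondrial enzymes were among the 12 widest gaps below. ACAT1, which handles acetoacetyl-CoA, was at 60.9, 54.8 and 52.7 CPM against 29.8 and 32.3 CPM, and SUCLG1, a subunit of succinyl-CoA ligase, at 70.2, 59.3 and 54.9 CPM against 38.1 and 35.5 CPM.

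Ribosomal proteins lay below in both compartments, in larger shares than the 15.6% of all genes. Of 82 cytosolic ribosomal proteins tested of 91 listed, 45 (54.9%) lay below and 0 above, 26 of 50 in the large subunit and 19 of 32 in the small one. Their summed level was 48542, 40739.6 and 38489.5 CPM in untreated spheroids, 35502 CPM with CONV-TOPO and 30103 CPM with EE-TOPO, with the same direction between untreated days. Without the untreated library of day 7, 71 lay below, and without CONV-TOPO, 74, beside 2326 and 2776 of all 10102 genes. RPS2 was at 914, 765 and 705 CPM without drug, 515 CPM with CONV-TOPO and 495 CPM with EE-TOPO. RPSA was at 1436, 932 and 1046 CPM against 647 and 603 CPM, and its copy RPSAP58 had nearly the same pattern, so reads of the pair are uncertain. Of 77 mitochondrial ribosomal proteins, 40 (51.9%) lay below and 0 above, with MRPL39 at 40.7, 36.8 and 33.1 CPM against 24.6 and 23.8 CPM. Without the untreated library of day 7 this count was 61, and without CONV-TOPO 60.

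Zinc finger genes of chromosome 19 lay on the other side. They encode DNA-binding proteins, many of them repressors, and stand in large clusters. Of 226 symbols starting with ZNF on that chromosome, 102 were tested, and 58 (56.9%) lay above and 1 below, beside 20.3% and 15.6% of all genes. Genes at this level can pass the filter through the treated libraries. The 87 with an untreated mean of at least 10 CPM were therefore counted as well. Of them 47 lay above, beside 1957 of all 9963 genes with such a mean. ZNF91 was at 6.66, 11.04 and 12.1 CPM without drug, 19.9 CPM with CONV-TOPO and 30.7 CPM with EE-TOPO. ZNF841 was at 7.56, 12.3 and 14.9 CPM against 24.5 and 35.9 CPM. Counting intervals stood apart for 18 of the 58, beside 566 of the 2050 genes above.

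**Figure D3:**
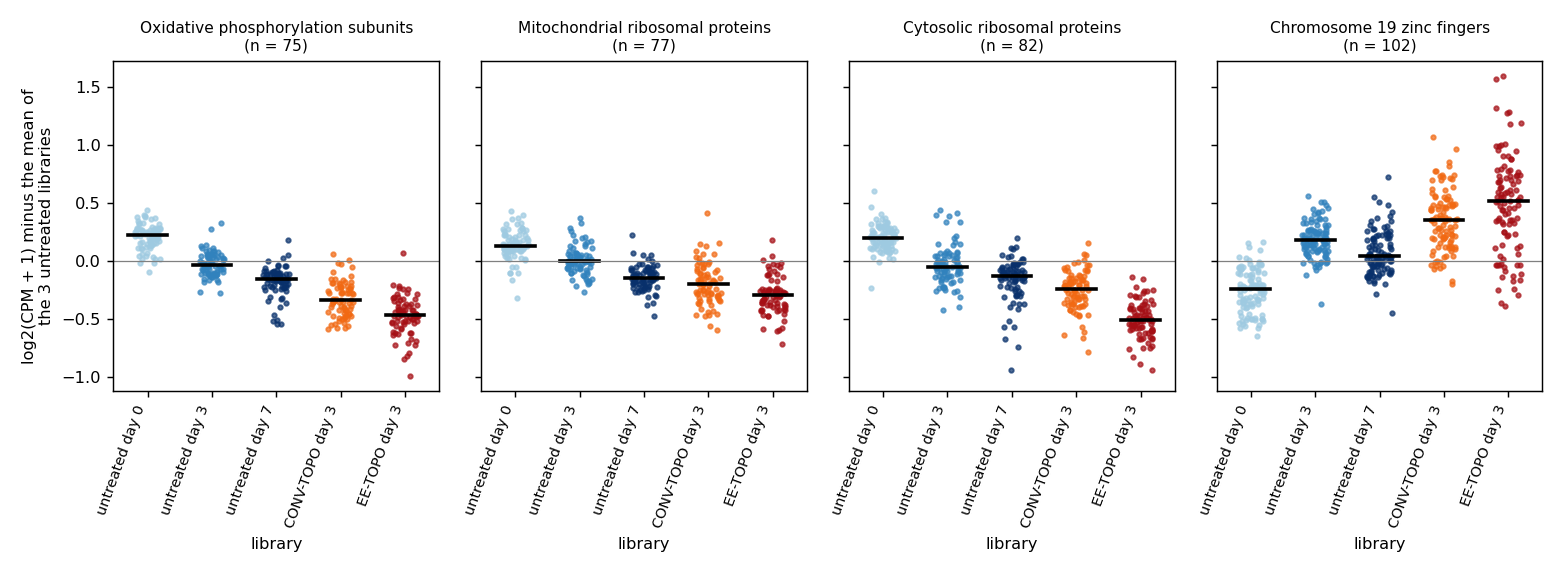
log2(CPM + 1) of each member minus its mean over the 3 untreated libraries (y axis) in each library (x axis), for 4 families; points are genes and black bars medians. Medians go from 0.22 in untreated day 0 to -0.34 with CONV-TOPO and -0.46 with EE-TOPO for oxidative phosphorylation and from -0.24 to 0.35 and 0.52 for zinc fingers, and untreated days 3 and 7 lie on the same side of untreated day 0 as the treated libraries.

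Calls followed the genomic span of genes, that is the distance from start to end. The median span was 29.7 kb for genes tested, 44.8 kb for genes above and 16.8 kb for genes below. Among 5 bins of genes of equal size, the bin of shortest genes had 12.4% above and 24.9% below, and that of the longest genes 28.8% above and 5.74% below. Across the 10102 genes, Spearman's rho of span with the log2 difference was 0.29, with 0.14 for CONV-TOPO and 0.37 for EE-TOPO, while between untreated libraries it was 0.38 for day 7 minus day 3, 0.33 for day 7 minus day 0 and -0.07 for day 3 minus day 0. Span thus went with a difference between untreated libraries as well, with a larger rho than with treatment, and its part in the results was not tested. Ribosomal proteins (median 5.05 kb) and oxidative phosphorylation subunits (10.5 kb) were short. Genes of the same bins of span lay below in 23.9% and 21.01% of cases, against 54.9% and 76.0% of the members. The median span was 14.3 kb for interferon-stimulated genes and 5.8 kb for the MHC class I list. Of their members 60% and 65% lay above, and of genes of the same bins 16.7% and 15.5%. What span contributed to any of these shares was not tested. Spans come from the deposited coordinates, which join distant copies for some repeated genes.

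**Figure D4:**
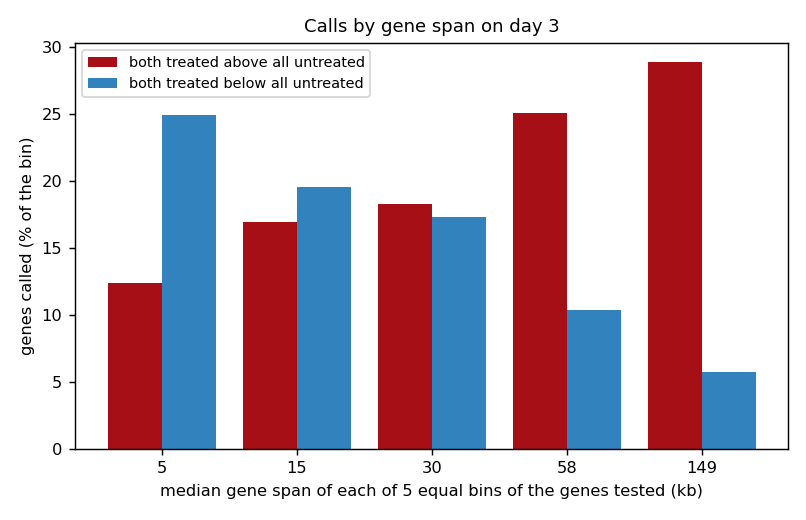
Share of genes (y axis, percent) above every untreated library (red) and below (blue) in 5 equal bins of the 10102 tested genes by genomic span (x axis, median span in kb). The share above climbs from 12.4% to 28.8% and the share below drops from 24.9% to 5.74%.

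Metabolic and stress lists were divided. Of 28 genes of glycolysis and hypoxia, 10 (35.7%) lay below and 4 (14.3%) above, beside 15.6% and 20.3% of all genes. PKM, the last enzyme of glycolysis, was at 4431, 3773 and 3770.4 CPM without drug, 3051 CPM with CONV-TOPO and 2669 CPM with EE-TOPO, and the hypoxia gene ADM was above at 27.8, 28.6 and 23.9 CPM against 43.2 and 35.8 CPM. Of 19 NRF2 targets, 7 (36.8%) lay below and 3 (15.8%) above, beside the same shares of all genes. The 3 above were HMOX1, GCLC and GCLM. The integrated stress response had 3 of 25 above and 0 below, a smaller share above than the 20.3% of all genes. DDIT4, an inhibitor of mTORC1, was at 15.5, 26.4 and 23.7 CPM against 50.5 and 73.4 CPM. Without the untreated library of day 3, 17 of the 25 lay above, beside 3134 of all 10102 genes. Heat shock genes (5 of 20 below, 2 above), cholesterol and fatty acid synthesis (6 of 26 below, 3 above), lysosome and autophagy (5 of 22 above, 1 below) and hosts of small nucleolar RNAs (3 of 15 below, 0 above) stand beside 15.6% of all genes below and 20.3% above. After TMM or median-of-ratios scaling 10 of the 20 heat shock genes lay below, beside 20.3% and 20.6% of all genes, and 2 lysosome genes lay above. Without EE-TOPO, 13 NRF2 targets and 13 heat shock genes lay below, beside 2336 of all 10102 genes. Without CONV-TOPO, 13 lysosome genes lay above, beside 3552.

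Signaling and identity lists gave few wide gaps. In TGF-beta and activin signaling 7 of 22 (31.8%) lay above and 3 (13.6%) below, beside 20.3% and 15.6% of all genes. Of the 21 with an untreated mean of at least 10 CPM, 6 lay above, beside 1957 of all 9963 such genes. BAMBI, a decoy receptor, was at 6.46, 10.3 and 8.51 CPM without drug, 15.9 CPM with CONV-TOPO and 14.99 CPM with EE-TOPO, and the activin inhibitor follistatin (FST) was below at 617, 787 and 649 CPM against 473 and 415 CPM. Epithelial-mesenchymal transition (EMT) markers had 6 of 25 above (24.0%) and 0 below, near the 20.3% of all genes. LAMA3, a laminin chain, was at 266, 199 and 295 CPM against 359 and 500.3 CPM, and VIM, an intermediate filament of mesenchymal cells, at 731, 851 and 802 CPM against 982 and 1002 CPM. CD55 and HAS3, which the study follows as EMT markers, overlapped: CD55 was at 212, 282 and 239.9 CPM against 233 and 195 CPM, and HAS3 at 689.9, 746 and 923 CPM against 799 and 694 CPM. Keratins and PC-3 genes had 4 of 15 above (26.7%), EGFR and its ligands 3 of 10 above and 2 below (30.0% and 20.0%), and NF-kB targets 3 of 19 above and 2 below (15.8% and 10.5%), beside the same 20.3% and 15.6% of all genes. Without CONV-TOPO, 14 genes of the TGF-beta list and 14 EMT markers lay above, beside 3552 of all 10102 genes. Without untreated day 3, 14 NF-kB targets did, beside 3134.

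**Figure D5:**
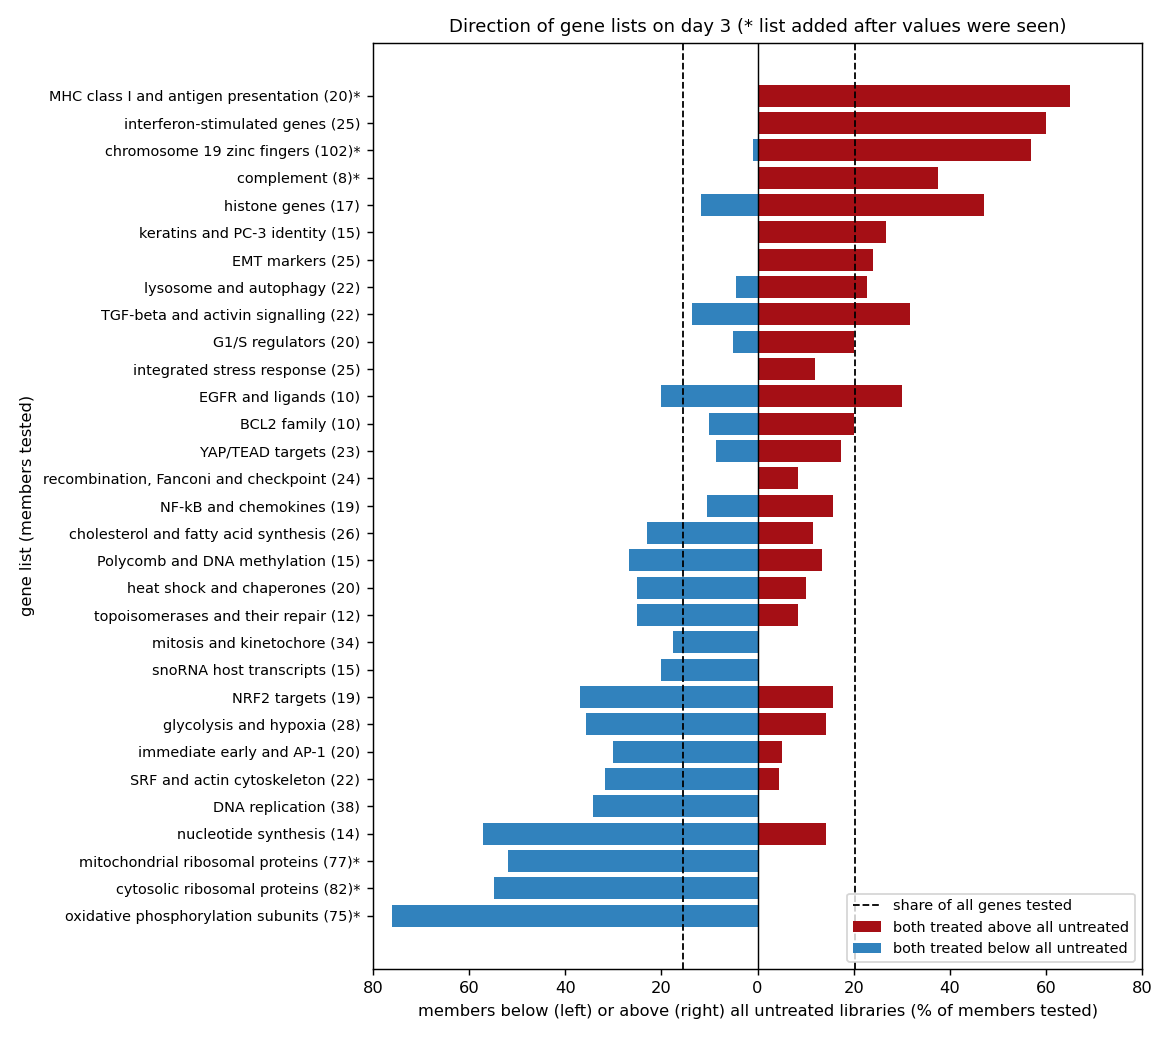
Share of the tested members of 31 lists (x axis, percent) above every untreated library (red, to the right) or below (blue, to the left), with the number tested in parentheses; dashed lines are the shares of all genes tested, 20.3% above and 15.6% below. The longest bars are oxidative phosphorylation (76.0% below) and MHC class I (65.0% above), and an asterisk marks lists added after values were seen. The lists without an asterisk were chosen with earlier results of these data known.

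The cells carried keratins and other genes known from PC-3. KRT8, KRT18, VIM and CAV1 were at 171 CPM or more in every library. SYP, a neuroendocrine marker, was at 0.451 to 1.79 CPM and ENO2 at 167 to 219 CPM. The stromal genes COL1A2 and DCN and the leukocyte gene PTPRC were at 0.601 CPM or less, while COL1A1 was at 52.9 to 83.0 CPM and the endothelial gene PECAM1 at 20.3 to 32.7 CPM. Estimated depth was 15.2 to 22.4 M reads (M, 1000000) for the 5 libraries, lowest in CONV-TOPO and highest in EE-TOPO, so 3 reads equal 0.134 to 0.198 CPM. BCL2L11 lies in the listed spans of RGPD5 and RGPD8, PLK2 and FST in that of GUSBP1, and PRDX1, ADAM17 and HAS3 overlap genes of the other strand, so reads there are uncertain. Fewer cells of a kind and less RNA per cell cannot be told apart in these libraries. Just inside the limit of 10 CPM lay H3C4 (mean 10.0004 CPM) and IL1RAP (10.0168 CPM), and just outside lay SNORC (9.98995 CPM) and ZNF397 (9.98933 CPM).

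The treated spheroids of day 7 were not part of the rule and share its untreated libraries, so here their values are given side by side only. CCN2 was at 21.1 CPM with CONV-TOPO and 24.5 CPM with EE-TOPO on day 7, PSCA at 21.2 and 58.6 CPM, HMOX1 at 64.2 and 104 CPM, and HLA-B at 607 and 870.0 CPM. Oxidative phosphorylation subunits summed to 8015 and 7303 CPM on day 3 and to 11718 and 10817 CPM on day 7, with 11762, 9943 and 9216 CPM in untreated spheroids. Cytosolic ribosomal proteins summed to 50868 and 47676 CPM on day 7. Summed levels of the interferon-stimulated genes were 6258 and 5877 CPM on day 7, near those of day 3.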

How the data were processed

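RNA of PC-3 spheroids was sequenced by the authors, as mRNA sequencing, in paired reads from a TruSeq v2 kit, which does not mark strand. Reads were mapped to hg38, counted per gene and normalized to CPM, and the CPM values of 18144 genes were deposited with 0.0001 added, which was subtracted. Groups came from the sample labels. Reads per library were estimated from the steps of low values (90.5% to 91.9% whole within 0.02), too few for a count test, so the planned test for CPM was used: limma 3.58.1 in R 4.3.3 on log2(CPM + 1), empirical Bayes with trend, 3 residual degrees of freedom, Benjamini-Hochberg at 0.05 over 10102 genes with a mean of at least 10 CPM. Scaling by TMM and by median-of-ratios used numpy 2.4.6. Members, the 26 gene lists and the tests were chosen with earlier results of these data known, and 6 further lists, the interferon core motif and the Poisson comparison were added after values were seen. Genes were named as CCN2, EZH2, TOP1, CD55 and HAS3, the 12 widest gaps in each direction that held under 3 scalings, and up to 3 changed members per list. Other members were named after their values were seen. Promoters came from RefSeq (GRCh38.p14). The fit was tested on simulated data. Libraries of day 1 (3) and the genes KLK3, CHGA, CD3E and CDH5 were not used here, and some named members and 1 of the lists are not reported here.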

Additional observations from a re-analysis of the deposited data

Results flagged for a closer look

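For 22 named genes, 16 named by rule and 6 after their values were seen, both treated libraries lay on one side of every untreated library on day 3 and on the other side on day 7, and the difference between the days was not tested. The day-7 comparison used the same untreated libraries. The same count over all 10102 genes tested is not given here, so these 22 are listed without a claim that they stand out.

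Genes below the untreated libraries on day 3 and above them on day 7 were BAX, an apoptosis promoter, with 69.2 CPM with CONV-TOPO and 63.3 CPM with EE-TOPO on day 7, and FDXR, an oxidoreductase of mitochondria, with 30.9 and 26.5 CPM. DTYMK and UBE2C, of thymidine nucleotide synthesis and of mitosis, were at 118 and 112 CPM and at 80.4 and 83.8 CPM. The actin-related genes TAGLN2 and MYL12B were at 2216 and 2200.1 CPM and at 518 and 575 CPM. PRDX1, a peroxidase, was at 771 and 725 CPM and ENO1, of glycolysis, at 5255 and 4799.9 CPM. The cholesterol synthesis genes FDFT1 and NSDHL were at 105 and 68.5 CPM and at 81.3 and 73.3 CPM. The ribosomal protein RPS2 was at 1227 and 1021 CPM and the histone H3-3A at 48.1 and 55.01 CPM.

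Genes above on day 3 and below on day 7 were MCL1, with 216 and 245 CPM on day 7, CDK6 with 24.7 and 32.2 CPM, ADAM17 with 18.99 and 15.5 CPM and TGFBR2 with 49.8 and 47.2 CPM. The DNA damage genes ATR and RAD50 were at 6.32 and 7.39 CPM and at 10.4 and 7.92 CPM. ERAP1, which trims peptides, was at 34.3 and 41.1 CPM, and YAP1 at 127 and 111 CPM. GCLC and GCLM, of glutathione synthesis, were at 36.4 and 38.9 CPM and at 25.2 and 24.4 CPM.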

How the results depend on the processing

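The count of changed genes followed the limits set. A filter of 50 CPM left 954 higher and 865 lower, and no filter gave 3559 higher. A gap of at least 1.2-fold left 309 and 169, a gap of at least 1.5-fold left 39 and 6, and Poisson intervals that stood apart, chosen after seeing the data, left 566 and 461. Leaving out 1 library at a time gave 2231 to 3552 higher and 1898 to 2776 lower; the higher count passed 1.5 times without untreated day 3 (3134), without untreated day 7 (3172) and without CONV-TOPO (3552), and the lower count without CONV-TOPO (2776). In limma, a filter of 50 CPM or none left 1 gene higher and a fit of all 7 libraries left 0. Without 1 library the counts ran from 0 to 87 higher and 0 to 13 lower, with 87 and 13 without untreated day 3, 1 higher without untreated day 0, untreated day 7 or CONV-TOPO, and 0 without EE-TOPO. The cause was not tested. By limma, PSCA stayed under 0.05 in 10 of 13 alternatives, HMOX1 in 7 of 13 and RDH10 in 7 of 14. By the rule of no overlap, 676 alternatives of the genes named by rule kept call and direction and 3 were newly called. Leaving out a library cannot undo a call, and the widest gaps were chosen to hold under all 3 scalings. Part of this count was thus fixed in advance. For the lists' counts, 311 alternatives stayed within 1.5 times and 137 did not. No paired analysis was possible because each condition was 1 library and the labels give no replicate numbers. Depth limits calls near 10 CPM, and calls with a small gap such as that of EZH2.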
